A study of Mus musculus with 7 samples.

Results

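The high mobility group (HMG) chromatin proteins were followed here through 10 genes: Hmga1 and Hmga2 of the HMGA family, Hmgb1, Hmgb2 and Hmgb3 of the HMGB family, Hmgn1, Hmgn2, Hmgn3 and Hmgn5 of the HMGN family, and Dek. These genes were chosen by name with their levels in these data already known. All 10 were present among the 50600 entries of the bulk gene table and among the 15536 genes of the single-cell table, and all 10 passed the filter on low counts that left 18088 bulk genes for testing. Their differences between groups and clusters are therefore given as descriptions, without p-values, and where a gene is said to be called in that comparison this only places it beside the share of all genes called.

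HMG proteins are small, abundant, mobile components of chromatin. HMGA proteins bind AT-rich DNA in the minor groove through AT-hook motifs. HMGB proteins bend DNA through HMG-box domains, and Hmgb1 can also leave the cell and act as a signal through receptors such as the one encoded by Ager. HMGN proteins bind the nucleosome itself and counteract its compaction by linker histone. Dek binds DNA and histones and is a substrate of protein kinase CK2. In neural stem cells of the mouse forebrain, Hmga2 is known for its high level in fetal and young animals and for repressing the Cdkn2a locus, and Hmgb2 is known as a marker of dividing cells.

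Transcripts were counted in 4 adherent cultures of neural stem and progenitor cells (NSPCs) from the dentate gyrus (DG) of C57Bl6J mice aged 6 to 8 weeks, named F1 and F2 (female) and M1 and M2 (male). The cells were at passages 6 to 15, on poly-D-lysine and laminin in Neurobasal A medium with B27 lacking vitamin A, and with 20 ng/ml each of epidermal growth factor and fibroblast growth factor 2. The comparison group was whole DG of 2 untreated C57Bl6J mice aged 7 to 9 weeks, F1 (female) and M2 (male), which holds neurons, glia and vessels beside the rare stem cells. A further single-cell library pooled 3 such cultures, 2 female and 1 male, from mice aged 6 to 9 weeks, and its cells cannot be assigned to a culture. No group carried a transgene or an allele change. The culture libraries were made with a SMART-Seq HT kit and the whole DG libraries with an NEBNext Ultra II Directional kit, so the kit and the group cannot be told apart in any bulk value.

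Deposited counts summed to 9917697 to 11747408 in the cultures and to 16676618 and 17351636 in whole DG. The 8 NSPC markers summed to 5320 to 5772 CPM (counts scaled to a common library size with TMM factors) in the cultures and to 815 and 850 CPM in whole DG. Of these 8 markers 5 were higher and 3 lower in cultures (edgeR, adjusted p under 0.05), so the sum does not describe each of them. The 10 neuronal markers summed to 760 to 938 CPM in the cultures and to 11707 and 12442 CPM in whole DG, and the 7 microglial markers to 9.27 to 16.1 CPM in the cultures and to 252 and 261 CPM in whole DG. The 7 astrocyte markers summed to 503 to 1399 CPM in the cultures and to 3608 and 4152 CPM in whole DG, and the 7 oligodendrocyte markers to 93.2 to 144 CPM and to 1261 and 1552 CPM. Vessel markers, 8 in number, summed to 3.22 to 18.7 CPM in the cultures and to 137 and 157 CPM in whole DG. Sox10 of the oligodendrocyte list, Aif1 and C1qa of the microglial list and Cldn5 of the vessel list had 0 counts in all 4 cultures. The 24 genes of G2 phase and mitosis summed to 1650 to 3804 CPM in the cultures and to 53.5 and 55.8 CPM in whole DG. The part of cell make-up in the values below was not tested, and in bulk RNA fewer cells of a type and less RNA per cell cannot be told apart.

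The promoters of Hmgb2 and Hmgb3 are shown because these genes had the highest ratios of cultures to whole DG among members counted in both groups, and that of Dek because its pattern over single-cell clusters differed from theirs. They were picked with their motif matches known, so the matches are no pattern of the members. Of the 10 genes, 9 had a promoter in the RefSeq table (11 promoters, mouse build GRCm38.p6), and each window shown is the 250 bases before the annotated start, on the gene's strand. Capitals mark the CCAAT box (CCAAT, or ATTGG where it lies on the other strand) and the cell cycle gene homology region, or CHR (TTTGAA, or TTCAAA on the other strand). Hmgb2 lies at chr8:57511593-57511842 on the plus strand, Hmgb3 at chrX:71555667-71555916 on the plus strand and Dek at chr13:47106222-47106471 on the minus strand.
Hmgb2: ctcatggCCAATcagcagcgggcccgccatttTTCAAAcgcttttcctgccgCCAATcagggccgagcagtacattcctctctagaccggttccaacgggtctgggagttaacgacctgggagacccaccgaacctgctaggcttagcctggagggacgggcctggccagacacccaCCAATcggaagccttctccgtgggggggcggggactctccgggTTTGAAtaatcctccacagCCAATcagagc
Hmgb3: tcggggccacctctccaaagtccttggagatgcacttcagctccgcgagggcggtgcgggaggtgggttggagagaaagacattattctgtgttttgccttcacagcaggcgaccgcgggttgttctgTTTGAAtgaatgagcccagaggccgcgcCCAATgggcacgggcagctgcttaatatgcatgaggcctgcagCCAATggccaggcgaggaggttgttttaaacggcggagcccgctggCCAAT
Dek: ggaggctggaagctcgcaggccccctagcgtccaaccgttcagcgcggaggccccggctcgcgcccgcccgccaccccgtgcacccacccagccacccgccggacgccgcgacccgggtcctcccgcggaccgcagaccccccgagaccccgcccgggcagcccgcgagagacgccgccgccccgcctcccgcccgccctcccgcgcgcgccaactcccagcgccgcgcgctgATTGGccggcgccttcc

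The Hmgb2 window held 4 CCAAT boxes, at positions -243, -198, -73 and -11 from the start, and 2 CHR words, at -218 and -30. The Hmgb3 window held 3 CCAAT boxes and 1 CHR word. The Dek window held 1 CCAAT box, no CHR word and 5 GC boxes (GGGCGG, either strand, some overlapping one another). Among the other windows, 1 of the 2 Hmgb1 promoters held 3 CCAAT boxes and the other none, Hmgn1 and Hmgn5 held 2 each, and those of Hmga1, Hmga2 and Hmgn2 held none. No member window held any of the 4 E2F words searched (TTTCCCGC, TTTGGCGC, TTTCGCGC, TTTGCCGC). Over all 32536 promoter windows of this length, 33.8% held a CCAAT box, 15.8% a CHR word, 1.87% an E2F word and 33.0% a GC box. These matches describe letters only.

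In the bulk libraries, 8 of the 10 genes were called higher in cultures than in whole DG, Hmgn5 was called lower and Hmga1 was not called (edgeR, adjusted p under 0.05). Over all tested genes, 77.3% were called, 35.6% higher and 41.7% lower, and since the members were chosen with this contrast known nothing is read from their count. In the same 8 genes every culture lay above both tissue libraries, as in 38.6% of tested genes, and Hmgn5 lay below in every culture, as in 45% of tested genes. The median log2 difference was 2.07 over the 10 genes and -0.13 over all tested genes. All members together summed to 2123 ± 278 CPM in cultures (SD, n = 4) and to 449 ± 6.21 CPM in whole DG (SD, n = 2), a ratio of 4.72. The HMGB family stood 5.90-fold and the HMGN family 5.60-fold above whole DG, while the HMGA sum had a ratio of 0.981.

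**Figure D1:**
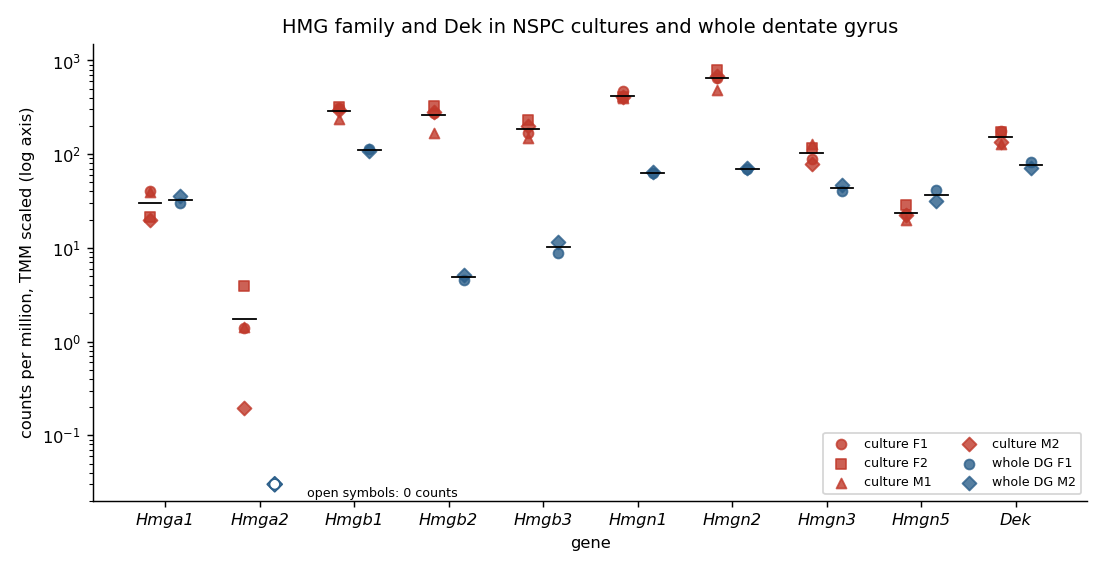
CPM (TMM scaled, log axis) of the 10 genes in each of the 4 cultures (red) and 2 whole DG libraries (blue), with black lines at the group means and open symbols for 0 counts. Hmgb2 shows the widest gap among genes counted in both groups, 262 against 4.84 CPM on average, and Hmga1 overlaps between the groups.

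Hmgb2 (chromosome 8, 57511907 to 57515999, GRCm38, no overlapping gene) measured 277 CPM in culture F1, 324 in F2, 167 in M1 and 280 in M2, against 4.52 CPM in whole DG F1 and 5.17 in M2. The lowest culture, M1, still lay far above both tissue libraries, and the ratio of the means was 54.1 (log2 difference 5.75, SE 0.34). Hmgb3 (chromosome X, 71555918 to 71560676), the X-linked member of the family, measured 167, 234, 149 and 199 CPM in cultures F1, F2, M1 and M2 and 8.78 and 11.4 CPM in whole DG. Its groups did not overlap either, with an 18.5-fold ratio (log2 difference 4.21, SE 0.26).

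Hmgb1 (chromosome 5, 149046702 to 149184489), the most studied family member, had 310, 318, 235 and 298 CPM in cultures F1, F2, M1 and M2 and 113 and 107 CPM in whole DG. Every culture was above both tissue libraries, by 2.63-fold on average (log2 difference 1.40, SE 0.16). The make-up of the family differed between the groups as a result of these unequal ratios. Hmgb1 held 39.6 ± 2.81% of HMGB counts in cultures (SD, n = 4) and 88.0 ± 2.07% in whole DG (SD, n = 2), whereas Hmgb2 held 35.0 ± 3.12% and 3.87 ± 0.433%. Scaled by exon length, the mean levels in cultures were 57.8 CPM per kb for Hmgb1, 87.3 for Hmgb2 and 83.8 for Hmgb3, and in whole DG 21.95, 1.61 and 4.52 CPM per kb. Hmgb1 was thus the lowest of the family per length in cultures and the highest in whole DG, but its rank in cultures turned when counts listed under near-identical copies were added, with 149 CPM per kb for Hmgb1, 117 for Hmgb2 and 87.1 for Hmgb3.

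**Figure D2:**
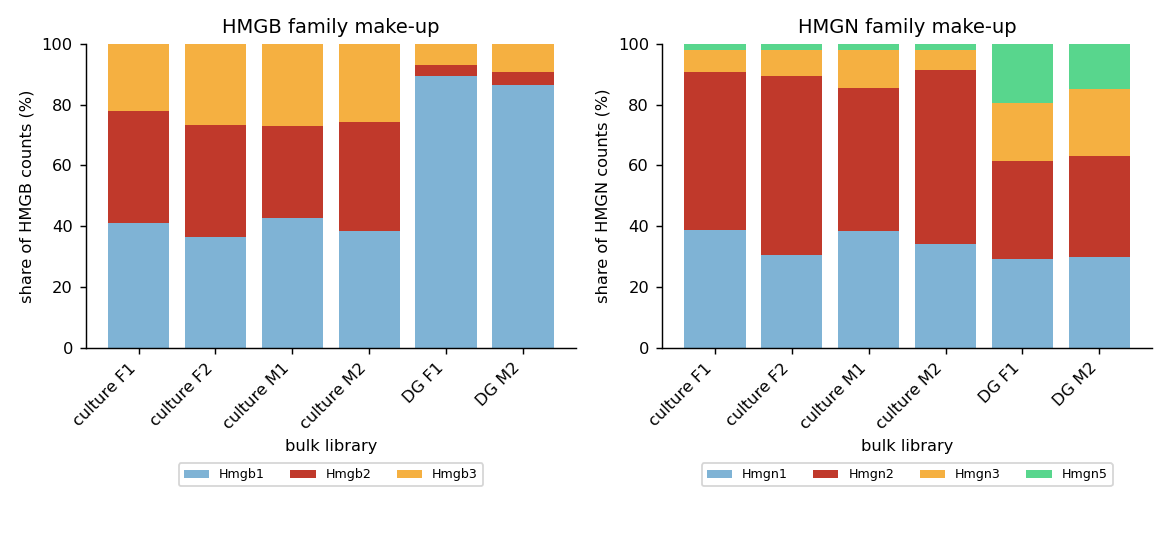
Share of the summed HMGB counts (left) and HMGN counts (right) held by each family member in each bulk library, in percent of counts not scaled by length. Hmgb1 holds 86.6% or more of HMGB counts in both whole DG libraries and 42.6% or less in the 4 cultures, and Hmgn5 drops from 14.9% or more to 2.10% or less.

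Among the nucleosome-binding HMGN proteins, Hmgn2 (chromosome 4, 133964738 to 133968650) was the most abundant in cultures, at 642, 796, 487 and 676 CPM in F1, F2, M1 and M2 against 69.2 and 70.8 CPM in whole DG. The tissue libraries were close to each other and the cultures lay 9.29-fold higher (log2 difference 3.22, SE 0.22). Hmgn1 (chromosome 16, 96120618 to 96127729), a close relative, measured 475, 412, 399 and 404 CPM in the cultures and 62.2 and 63.9 CPM in whole DG, a 6.70-fold ratio (log2 difference 2.74, SE 0.14) with the smallest spread of any member over the cultures (coefficient of variation 8.46%). Hmgn3 (chromosome 9, 83109948 to 83146685) had 88.6, 115, 129 and 78.8 CPM in the cultures and 40.9 and 47.1 CPM in whole DG, a 2.34-fold ratio (log2 difference 1.23, SE 0.22).

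Hmgn5 (chromosome X, 109004534 to 109013404), a member with a long acidic tail, ran the other way. It had 23.2, 28.3, 19.7 and 22.3 CPM in cultures F1, F2, M1 and M2 and 42.0 and 31.9 CPM in whole DG, a ratio of 0.633 (log2 difference -0.66, SE 0.19). All cultures lay below both tissue libraries, but the highest culture and the lower tissue library were near each other, and without whole DG F1 the log2 difference was -0.45 and the call was lost. Its share of HMGN counts was 1.94 ± 0.102% in cultures and 17.3 ± 3.28% in whole DG. Per length, the order of the family was Hmgn2, Hmgn1, Hmgn3 and Hmgn5 in cultures (213, 131, 55.1 and 12.1 CPM per kb), and in whole DG the 4 genes lay close together, between 19.1 and 23.6 CPM per kb.

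Hmga2 (chromosome 10, 120361275 to 120476469) had 17 counts in culture F1, 45 in F2, 15 in M1 and 2 in M2, and 0 in both whole DG libraries. The mean was 1.73 ± 1.56 CPM in cultures (SD, n = 4). Pooled over the 4 libraries the level was 1.78 CPM, at least 18.96-fold higher than whole DG when the latter is set to a floor of 3 counts over the group, and at least 11.03-fold higher without culture F2, which held most of its counts. The floor covers counting error only. Hmga1 (chromosome 17, 27556497 to 27563674) measured 40.8 CPM in F1, 21.3 in F2, 39.1 in M1 and 20.0 in M2 against 29.9 and 35.5 CPM in whole DG. The cultures fell on both sides of the tissue, and the log2 difference of -0.11 (SE 0.32) was within the spread of the cultures.

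Dek (chromosome 13, 47084775 to 47106201) had 176, 171, 129 and 134 CPM in cultures F1, F2, M1 and M2 and 82.8 and 72.1 CPM in whole DG. All cultures lay above the tissue, with a ratio of 1.97 (log2 difference 0.98, SE 0.18). The gene overlaps Kdm1b on the opposite strand, and the sources used here do not say whether reads were counted by strand. Hmga1, Hmga2, Hmgb1, Hmgn3 and Hmgn5 also overlap other annotated genes.

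Copies of these genes bear on the counts. A search of the annotation at 95% identity or more over at least 150 bases found 45 near-identical copies of Hmgb1, all annotated as pseudogenes, of which 37 were in the count table, 5 of Hmgb2, 13 of Hmgn2, 4 of Hmgn1 and 1 each of Hmgb3 and Hmgn5, but none of Hmga2, Hmgn3 or Dek. The counts listed under Hmgb1 copies amounted to 158% of those listed under Hmgb1 itself in cultures and to 130% in whole DG. With copies added, Hmgb1 reached 747 ± 103 CPM in cultures (SD, n = 4) and 253 ± 0.318 CPM in whole DG (SD, n = 2), and its log2 difference was 1.57 in place of 1.40. For Hmgb2 the copies held 34.4% and 25.2% of its own counts in the 2 groups, and its log2 difference was 5.86 with them. The assignment of reads shared between copies is not described by any source used here, so the level of Hmgb1 in particular is uncertain.

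**Figure D3:**
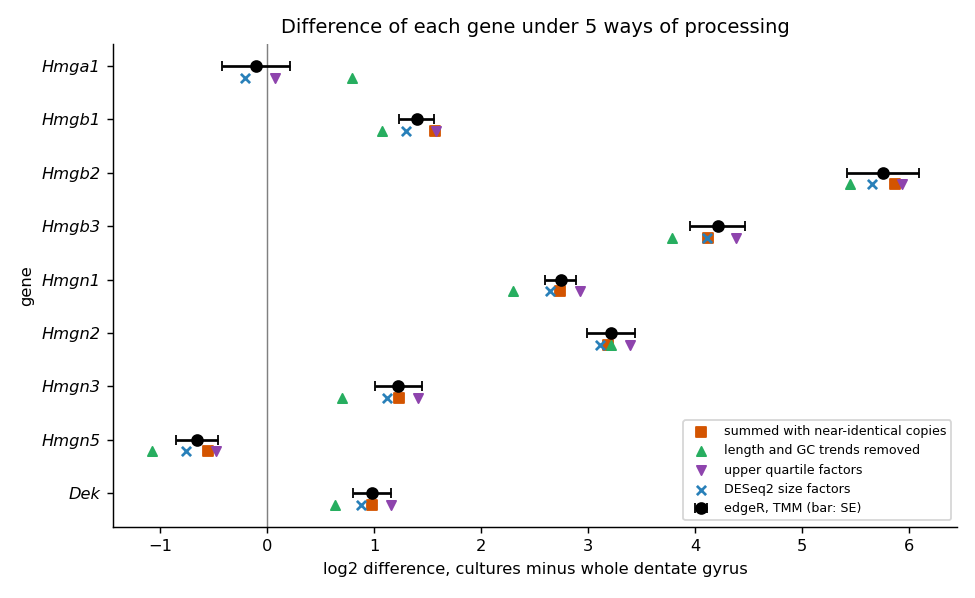
Log2 difference between cultures and whole DG (x axis) for 9 genes, with the edgeR value and its standard error in black and 4 other ways of processing in colour. Hmga2 is left out because it has 0 counts in whole DG. Hmga1 is shown without the sum over copies. The direction of the other 8 genes is the same in all 5 ways, and Hmga1 lies between -0.21 and 0.79.

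Removing the trends with exon length and GC content over all tested genes lowered most of these differences, to 1.07 for Hmgb1, 2.29 for Hmgn1, 0.70 for Hmgn3 and 0.63 for Dek on the log2 scale. It moved Hmga1, the most GC-rich of the 10 genes (61.4% GC), to 0.79, so the side on which Hmga1 falls depends on this setting. It also falls on the other side with upper quartile scaling (0.073), which moved the median of all genes by 0.18, while DESeq2 size factors moved that median by -0.10.

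The order of the 4 cultures differed between members, described after the values were seen and without a test. For Hmgb2, Hmgb3 and Hmgn2 the order from high to low was F2, M2, F1 and M1. The summed genes of G2 phase and mitosis had this order too, at 3804 CPM in F2, 3178 in M2, 3084 in F1 and 1650 in M1. Hmgb1 and Hmgn5 followed F2, F1, M2 and M1, the order of the summed S phase genes (4639, 4401, 4150 and 3386 CPM). The other 5 members followed neither: Dek and Hmgn1 ran F1, F2, M2 and M1, Hmgn3 was highest in M1, Hmga1 was highest in F1 and M1, and Hmga2 ran F2, M1, F1 and M2. The G2 and mitosis order and the S phase order differ only in the places of F1 and M2. These cultures lay near each other for Hmgb2 (277 and 280 CPM), Hmgb1 (310 and 298) and Hmgn5 (23.2 and 22.3), less so for Hmgb3 (167 and 199). No link of a member to a phase is therefore read from these orders.

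Sex was tested within the cultures, a contrast not used to choose the genes, with 2 female and 2 male cultures. No member passed (edgeR quasi-likelihood test, adjusted over 15140 genes), where 0.0264% of all genes did. Dek came nearest, at 174 CPM in female and 132 CPM in male cultures, with both male cultures below both female ones and a log2 difference male minus female of -0.39 (SE 0.14, 95% interval -0.73 to -0.055, edgeR unadjusted p = 0.0291, adjusted p = 0.761). The X-linked genes Hmgb3 and Hmgn5 differed by -0.20 (interval -0.75 to 0.35) and -0.29 (interval -0.82 to 0.24). Hmgn3 and Hmga1 had the differences nearest to 0, at 0.037 and -0.065. The interval of Hmga1 reached from -1.11 to 0.97, so a difference near 2-fold in either direction would not have been seen. In whole DG, F1 was the only female and M2 the only male library, so sex and animal cannot be told apart there. The sex difference was also compared between cultures and tissue, as an interaction term, for 9 members, Hmga2 being at 0 in whole DG, and none passed (edgeR adjusted p = 1.00 for each, 0 members at an unadjusted p under 0.05). Over all 18088 genes, 0 passed the interaction test with edgeR, 328 had an unadjusted p under 0.05, and a DESeq2 Wald test called 1.

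Related genes were taken from 6 lists of genes that are not members. They were compared between cultures and whole DG with edgeR, adjusted over all tested genes. The lists too were chosen with earlier results of these data known, and the genes named were picked largely by size of change or by level. Their p-values therefore describe the named genes and are no independent test. Of 22 tested relatives with an HMG box or AT hook, 10 rose and 6 fell in cultures, where 35.6% of all tested genes rose and 41.7% fell (median log2 difference 0.53, against -0.13 over all genes). Tcf7l2, a transcription factor of the Wnt pathway, rose from 2.60 ± 0.0234 CPM (SD, n = 2) to 107 ± 17.8 CPM (SD, n = 4; log2 difference 5.36, SE 0.24, edgeR adjusted p = 4.6e-07). Cic, a transcriptional repressor downstream of receptor tyrosine kinase signalling, fell from 224 ± 18.7 to 18.4 ± 4.98 CPM (log2 difference -3.61, edgeR adjusted p = 2.1e-06). Tox2 rose with a log2 difference of 2.47. Those with the highest mean over all 6 libraries were Ssrp1, the HMG-box subunit of the histone chaperone FACT, Pbrm1, a subunit of the PBAF remodelling complex, and Ubtf, which acts in ribosomal RNA transcription, with log2 differences of 1.07, 1.11 and -0.99. All of these passed the test.

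Of 5 tested linker histones, whose binding HMGN proteins counteract, 3 rose and 1 fell, where 77.3% of all tested genes changed. Hist1h1c measured 80.4 ± 24.1 CPM in cultures and 23.5 ± 2.54 CPM in whole DG (log2 difference 1.77, edgeR adjusted p = 0.00045), and H1f0, the linker histone linked to differentiated cells, 234 ± 50.6 and 110 ± 3.48 CPM (log2 difference 1.09, edgeR adjusted p = 0.0016). H1fx fell from 50.4 ± 4.04 to 0.251 ± 0.217 CPM (log2 difference -7.61, edgeR adjusted p = 1.9e-06). In the single-cell library, however, H1fx stood at 1.01 UMIs per 10000, which is 101 CPM of UMIs and 403 times its mean CPM in bulk cultures. The part of the kit and of the counting in its bulk difference was not tested.

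Of 33 other chromatin proteins and histone chaperones, 19 rose and 7 fell, where 35.6% of all tested genes rose and 41.7% fell (median log2 difference 0.82). The number that rose was 16 without whole DG M2 and 24 with upper quartile scaling. The deposition factors Chaf1b and Asf1b, which load histones behind the replication fork, rose most, from 0.473 to 80.7 CPM and from 0.412 to 58.6 CPM (log2 differences 7.39 and 7.13, edgeR adjusted p = 2.2e-07 and 1.4e-06). The histone variant H2afz rose by 2.69 and nucleolin, Ncl, by 1.43 on the log2 scale. Ptma, an acidic linker histone binding protein, had 578 ± 160 and 388 ± 18.8 CPM and did not pass (log2 difference 0.58, edgeR adjusted p = 0.058). Anp32a fell from 375 ± 12.9 to 14.3 ± 1.66 CPM (log2 difference -4.72, edgeR adjusted p = 8.6e-08), yet reached 348 CPM of UMIs in the single-cell library.

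Of 4 tested receptors of extracellular Hmgb1, Cd24a, which binds Hmgb1 at the cell surface, rose from 13.6 ± 6.73 to 114 ± 26.6 CPM (log2 difference 3.08, edgeR adjusted p = 7.5e-05), and 2 fell. Those 2, named after their values were seen, were Cxcr4 and Havcr2, at means of 1.45 and 0.132 CPM in cultures. Ager had 9 counts over the 4 cultures and 27 over whole DG and was not tested. Of the genes around Hmga2, 2 of 3 tested rose and none fell. Over all tested genes 35.6% rose and 41.7% fell. Nothing is read from the counts of receptors, genes around Hmga2 or CK2 subunits, which are few. Cdkn2a, the locus that Hmga2 represses in young stem cells, had 496 counts over the cultures and 1 in whole DG (edgeR adjusted p = 9.3e-06), a ratio of 357 with an exact counting interval of 63.8 to 14143. Cdkn2a measured 11.2 CPM in bulk cultures and 219 CPM of UMIs in the single-cell library, so its bulk level is uncertain. Lin28a, upstream of Hmga2 through the let-7 miRNAs, had 0 counts in all libraries. Lin28b, on the same list, had 4 counts over the cultures and 22 over whole DG and was not tested. Of the CK2 subunits, Csnk2a1 and Csnk2b rose (log2 differences 1.01 and 0.79) and Csnk2a2 fell (-2.57), with edgeR adjusted p = 0.00024, 0.00071 and 4.6e-06. Csnk2a2 had 55.9 CPM in whole DG and 9.41 CPM in bulk cultures, yet reached 90.3 CPM of UMIs in the single-cell library. The part of the kit and of the counting in its bulk difference was not tested.

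The single-cell library held 14912 cells in clusters numbered 0 to 5, of 3925, 3297, 3260, 1910, 1428 and 1092 cells. It is 1 pooled library without replicates, the clusters were formed from the same cells, and the intervals that follow cover counting error only (95%, exact Poisson for levels and exact binomial for shares). Median depth ran from 3431 UMIs per cell in cluster 1 to 5270.5 in cluster 4, no cell had more than 2499 genes, and no barcode occurred in more than 1 cluster. The median number of genes per cell ran from 1548 in cluster 1 to 2121 in cluster 4, so cluster 4 lay nearest that ceiling. The effect of the ceiling on the cluster levels was not tested. The NSPC marker Fabp7 was found in 99.97% of cells and Nes in 88.2%, Rbfox3 of the neuronal list in 0.630%, and P2ry12 of the microglial list in 0.241%. The G2 and mitosis genes summed to 93.4 UMIs per 10000 in cluster 4, 38.3 in cluster 2, 37.2 in cluster 1, 8.78 in cluster 3, 4.65 in cluster 0 and 3.54 in cluster 5. The S phase genes were highest in cluster 2 (25.4) and cluster 3 (20.8).

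**Figure D4:**
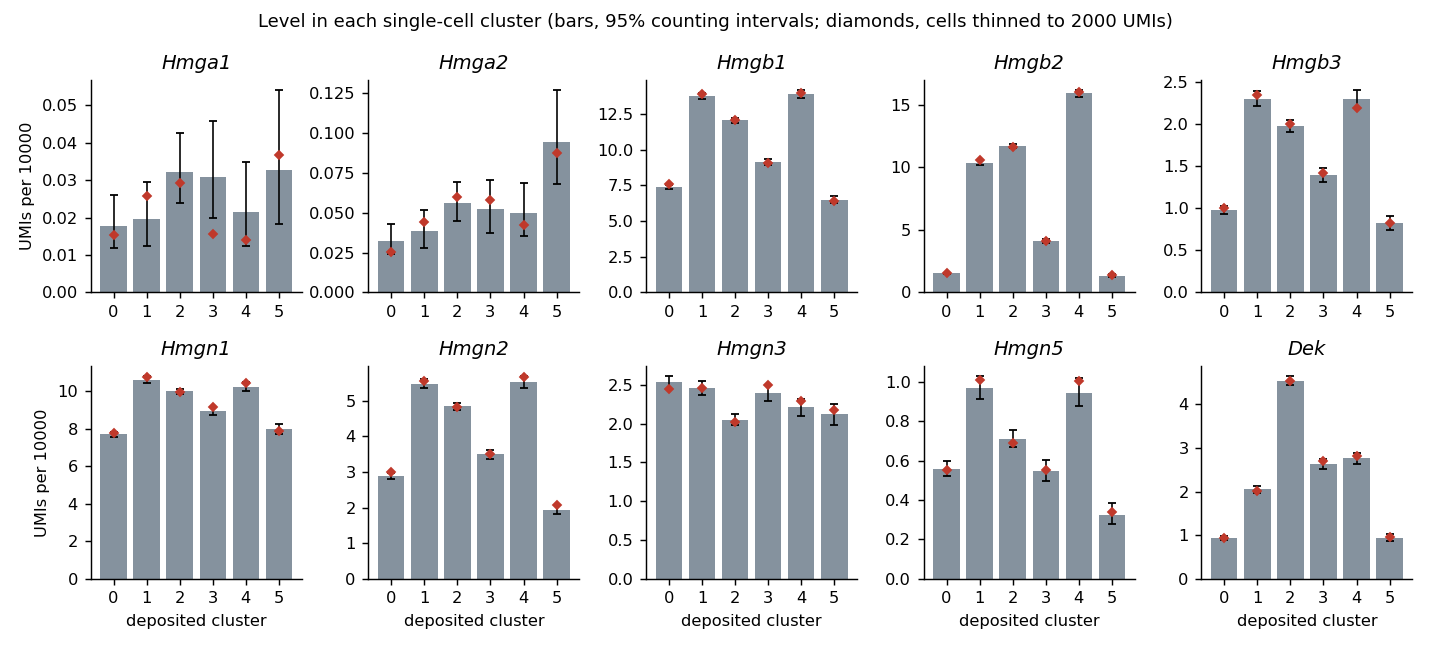
UMIs per 10000 of each gene in clusters 0 to 5, as bars with 95% Poisson counting intervals, with diamonds for the same value after each cell was thinned to 2000 UMIs; the y axes differ between genes. Hmgb2 spans 1.35 to 15.9, Dek peaks in cluster 2 at 4.54, and Hmgn3 stays between 2.05 and 2.53.

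Hmgb2 varied most over the clusters. Its level per 10000 UMIs was 15.9 (interval 15.6 to 16.2) in cluster 4, 11.7 in cluster 2, 10.4 in cluster 1, 4.11 in cluster 3, 1.52 in cluster 0 and 1.35 (interval 1.25 to 1.46) in cluster 5, an 11.8-fold span. The order followed that of the G2 and mitosis sum in every position, although the counting intervals of clusters 0 (1.46 to 1.58) and 5 overlapped slightly. A UMI of Hmgb2 was found in 99.6% of cells of cluster 4 and in 40.8% of cells of cluster 0. The 618 UMIs in cluster 5 show that the transcript was still counted where the cell-cycle sums were lowest, although free RNA in droplets was not measured.

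Hmgb1 was more even and more widely found, in 95.4% of all cells. It measured 13.9 UMIs per 10000 in cluster 4, 13.7 in cluster 1, 12.1 in cluster 2, 9.10 in cluster 3, 7.38 in cluster 0 and 6.49 in cluster 5, a 2.14-fold span. Clusters 4 and 1 did not differ beyond their counting intervals. Hmgb3, at 1.67 UMIs per 10000 over all cells, was highest in clusters 1 and 4 (2.30 and 2.29, intervals overlapping) and lowest in cluster 5 (0.825).

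Hmgn1 was found in 96.0% of cells and spanned only 1.38-fold, from 10.6 UMIs per 10000 in cluster 1 to 7.71 in cluster 0. Hmgn2 went from 5.52 in cluster 4 and 5.48 in cluster 1 to 1.93 in cluster 5, a 2.86-fold span. Hmgn5 measured 0.970 in cluster 1, 0.944 in cluster 4 and 0.326 in cluster 5, a 2.98-fold span at a low level. Its level was 0.710 in cluster 2, 0.558 in cluster 0 and 0.548 in cluster 3. Hmgn5 was thus lower in bulk cultures than in tissue. In the single-cell library it was higher in clusters 4, 2 and 1, which had the larger G2 and mitosis sums, than in clusters 0, 3 and 5. Its order did not follow those sums in every position. Hmgn3 was nearly level at 1.23-fold, with cluster 0 highest (2.53) and cluster 2 lowest (2.05). Its neighbours in the order had overlapping intervals, and after thinning cluster 3 was highest, so its order is not settled.

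Dek had a pattern of its own among the members, with its peak in cluster 2, the cluster with the highest S phase sum. It measured 4.54 UMIs per 10000 there (interval 4.43 to 4.65), 2.76 in cluster 4, 2.62 in cluster 3, 2.05 in cluster 1, 0.943 in cluster 5 and 0.939 in cluster 0. Clusters 5 and 0 did not differ beyond counting error, nor did clusters 4 and 3. Hmga1 and Hmga2 were too sparse for an order, with 156 and 303 UMIs in all and a UMI in 1.03% and 1.93% of cells. All neighbours in the order of Hmga1 overlapped, and Hmga2 was 0.0941 in cluster 5 (interval 0.0681 to 0.127) and 0.0324 in cluster 0 (interval 0.0240 to 0.0428).

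To compare cells of unequal depth, each cell was thinned to 2000 UMIs, which left out 0 cells, and cells were grouped by their summed UMIs of G2 and mitosis genes. From the 2856 cells with none to the 545 cells with 21 or more, Hmgb2 went from 1.72 to 16.5 UMIs per 10000. Hmgb1 went from 7.09 to 14.4, Hmgn2 from 2.86 to 6.04, Hmgb3 from 0.986 to 2.37 and Hmgn5 from 0.464 to 1.07, each higher in every step. Hmgn1 went from 7.85 to 10.1 and Hmgn3 from 2.51 to 2.31. By S phase genes, Dek went from 1.17 in the 3096 cells with none to 4.42 in the 147 cells with 11 to 20, while Hmgb2 was highest in the middle group of 3 to 5 UMIs (9.72) and Hmgn3 moved only between 2.21 and 2.48. In the 1120 thinned cells with no UMI of either list, Hmgb1 and Hmgn1 remained at 6.32 and 7.39 UMIs per 10000 and Hmgb2 at 1.13.

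**Figure D5:**
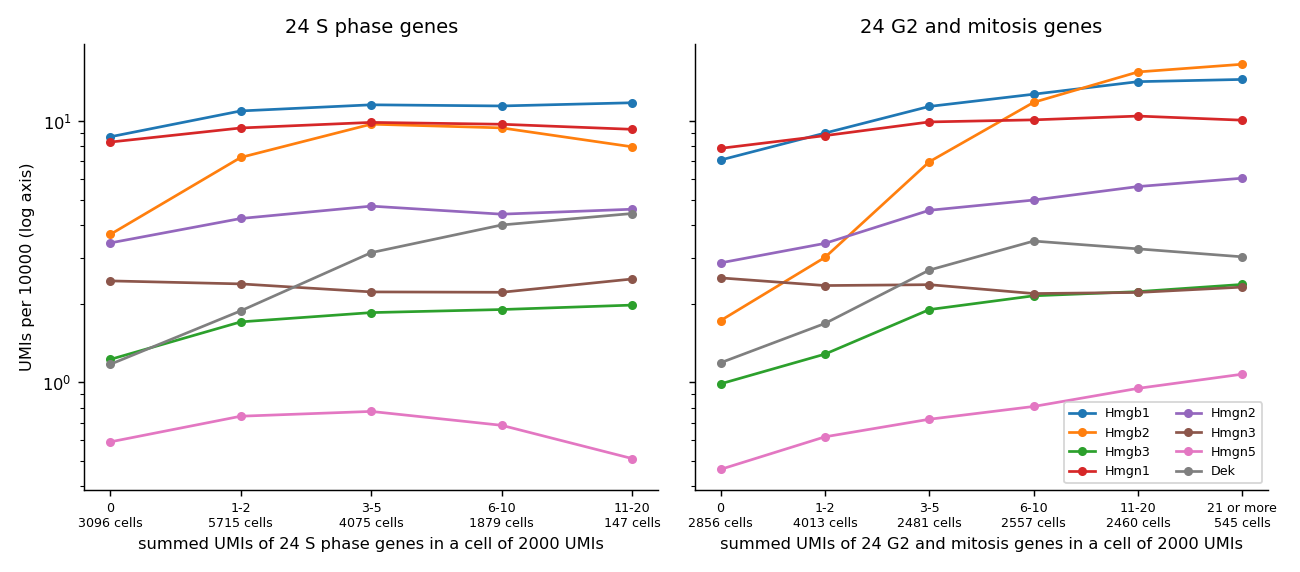
UMIs per 10000 (log axis) of 8 genes in cells thinned to 2000 UMIs and grouped by their summed UMIs of 24 S phase genes (left) or 24 G2 and mitosis genes (right), with the number of cells under each group. Hmgb2 climbs from 1.72 to 16.5 on the right, Dek from 1.17 to 4.42 on the left, and Hmgn3 is nearly flat in both.

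Over the 14912 cells, which share 1 library and differ in depth, Pearson's r of the deposited log values with the G2 and mitosis sum was 0.69 for Hmgb2, 0.36 for Hmgb1, 0.30 for Hmgn2, 0.29 for Dek, 0.24 for Hmgb3, 0.16 for Hmgn1 and -0.017 for Hmgn3. With the S phase sum it was 0.40 for Dek and 0.38 for Hmgb2. Within clusters r was lower for each of these genes but Hmgn3. With the G2 and mitosis sum it ran over clusters from 0.097 to 0.46 for Hmgb2 and from 0.019 to 0.17 for Hmgb1. It ran from 0.0073 to 0.11 for Hmgn2, -0.0027 to 0.12 for Dek, 0.017 to 0.12 for Hmgb3 and -0.058 to 0.067 for Hmgn1. With the S phase sum it ran from 0.036 to 0.13 for Dek and from -0.18 to 0.18 for Hmgb2. Among 6994 other genes found in at least 5% of cells, those most like Hmgb2 were Mki67, the Ki-67 proliferation antigen (r = 0.52), Pclaf, a PCNA-binding factor (r = 0.51), and H2afz (r = 0.50). Those most like Hmgb1 were H2afz (r = 0.45), Ptma (r = 0.35) and Stmn1 (r = 0.33). Hmgn2 was most like H2afz (r = 0.36), and Dek was most like Pclaf (r = 0.35) and Top2a, the mitotic topoisomerase (r = 0.32). No gene reached r = 0.3 with Hmga1, Hmga2, Hmgb3, Hmgn1, Hmgn3 or Hmgn5.

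Bulk cultures and single cells, set side by side on the CPM scale, ranked some members differently, and one counts along the transcript while the other counts its 3' end. Hmgb1 had 290 CPM in bulk (747 with its copies) and 1067 CPM of UMIs in single cells. Hmgn2 had 650 CPM and 418 CPM of UMIs. Hmga1 had 30.3 CPM and 2.50 CPM of UMIs, the widest gap among the members. The cause of these gaps was not tested.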

How the data were processed

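The deposited bulk table gives unnormalized whole-number counts for every gene in each library. Alignment with HISAT2 2.0.6 and counting with featureCounts of Subread are named in the submitters' processing notes. These notes list GRCh38, a human build, yet the table uses mouse symbols. Positions, lengths and GC content came from GENCODE M21 on GRCm38. The single-cell table holds the natural log of 1 plus UMIs per 10000 as deposited by the authors, with a cluster number per cell. UMIs were recovered from it, 100% of values lying within 0.01 of a whole number. The submitters' processing notes name Cell Ranger 3.1.0 and Seurat 3.1.0, while the labels' protocol names other versions. Whether doublets were removed is not stated, and no caller was run.

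Counts were fitted in R 4.3.3 by the quasi-likelihood test of edgeR 4.0.16 after TMM scaling and filterByExpr, with Benjamini-Hochberg adjustment over all tested genes at a threshold of 0.05, with group as the only term in all 6 libraries, with sex in the 4 cultures, and with their interaction. The spread behind each p-value is that of the cultures and of 2 animals. No 2 replicate libraries agreed within sampling noise. The members and lists were chosen with earlier results of these data known. Besides the 10 members, the text names in each related list the 3 genes with the largest absolute log2 difference and the 3 with the highest mean. These were taken among genes of at least 10 CPM in either group. Per member, the 3 genes most like it over cells are named where r was at least 0.3. Ager, Cxcr4, Havcr2, Lin28a and Lin28b were named outside these rules. Copies were searched with blastn 2.17.0. Alternatives were other scalings, filters and tools, leaving out each library, a replicate block, thinned depth and, for single cells, other filters and summaries. On simulated counts the culture comparison recovered 71.7% of 2-fold and 100% of 4-fold changes over 17330 genes, and the sex comparison 47.5% and 90.9% over 14911 genes. In the simulated culture comparison 17135 genes were unchanged, whereas 77.3% of genes were called in the real one. Its recovery rates may therefore not hold for the real comparison. Promoters came from RefSeq. Values of 1 copied gene are not reported here.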

Additional observations from a re-analysis of the deposited data

Results flagged for a closer look

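Among the 4 cultures, the Hmgb2 share of HMGB counts was 36.7%, 37.0%, 30.4% and 36.05% in F1, F2, M1 and M2, so that M1 stood apart from the other cultures by 0.858 of the whole range, above the 95% critical value of Dixon's ratio for 4 samples. Culture M1 also had the lowest sum of G2 and mitosis genes, 1650 CPM, and the part of that difference in the share was not tested.

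The Hmgn5 share of HMGN counts was 1.89%, 2.10%, 1.90% and 1.89% in F1, F2, M1 and M2, and F2 stood apart by 0.939 of the range. The range itself is narrow. Chance flags about 1 in 20 groups, and 21 values, many of them shares of the same totals, were checked to give these 2.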

How the results depend on the processing

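The log2 difference of 9 members kept its sign under all 14 alternatives, and that of Hmga1 under 9 of 14. The counts of members called were 8 higher and 1 lower in every setting except without whole DG F1, where Hmgn5 was lost. The labels F1 and M2 occur in both groups, but no label ties same-numbered libraries to 1 animal. The r of same-numbered libraries was 0.045 and 0.060 over 18088 genes, and -0.045 and -0.060 with the other tissue library. These mirrored values rest on the difference between the 2 tissue libraries, so they cannot show whether an animal is shared. With the label as a replicate block, 6084 genes were higher and 7428 lower in cultures, against 6440 and 7536 without it. The members' calls did not change with the block. With no filter on low counts, 4 Hmgb1 receptors and 1 gene around Hmga2 were lower. Leaving out 1 library each gave 0 to 1 such genes around Hmga2. Genes called between sexes numbered 273 with no filter, 60 with DESeq2 and from 3 to 81 when 1 culture was left out (81 without F1, 13 without F2), with no member among them in any of these settings. In the interaction of sex and group, with alternatives chosen after seeing the data, 6 genes were called with no filter and 1 with DESeq2. Adding near-identical copies was also chosen after seeing the data. Ranking clusters by the mean of the log values kept the highest cluster for 6 of 10 members. The cause of these changes was not tested. Few counts of Hmga2 in bulk, and few UMIs of both HMGA genes in single cells, limit what can be said of them.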
